A study of Mus musculus with 8 samples.

Results

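The genes described here flank Rag1 and Rag2, the neighbouring genes of the V(D)J recombinase, on mouse chromosome 2. They are the rows of the deposited expression table whose start lies between 92000000 on chromosome 2 of genome build mm9 and a point 19 Mb (megabases) higher. Olfactory receptor symbols were to be left out, and the interval held 0 of them. The rule used position alone and gave 104 of the 24016 genes in the table. RNA sequencing was made from CD4+ T cells of mouse spleen, divided by a green fluorescent protein reporter of Foxp3 into Treg cells, which carry the reporter, and non-Treg cells, which do not. Monoclonal libraries came from the strain NOD.TCRab.FoxP3GFP.Rag-/-, whose T cells carry a single T cell receptor, and polyclonal libraries from NOD.FoxP3GFP. Both strains carry the Foxp3 reporter on a NOD background, and NOD mice are prone to autoimmune diabetes. The 8 libraries form 4 groups of 2, with replicates A and B: Treg and non-Treg cells of each kind of mouse. The sources used here give no ages, sexes or further alleles, and they do not name the Rag gene that is deleted. Strain, Rag genotype and T cell receptor change together between the mice and cannot be told apart. Separate animals for A and B are not stated, so p-values measure the spread between these libraries, which may be technical.

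Rag1 and Rag2 encode the partners of the enzyme that cuts DNA at antigen receptor genes in developing lymphocytes, and both are normally silent in mature T cells. Beside Rag2, and partly overlapping it, lies B230118H07Rik, known as NWC and now named Iftap, whose transcription in lymphocytes is known to start from the Rag1 promoter. A targeted allele is inherited together with the DNA on either side of it, so the neighbours of a deleted gene travel with it through breeding. The interval is mixed in function. It holds a memory T cell receptor (Cd44), a signalling ligase (Traf6), blood and epithelial transcription factors (Lmo2, Ehf), an antioxidant enzyme (Cat) and developmental regulators such as Pax6 and Wt1.

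Of the 104 genes, 33 had no read in any library, among them Pax6, Wt1, Bdnf and Elf5. Another 18 had reads but did not reach 1 CPM (count per 1000000 reads) in 2 libraries, and the other 53 were tested. Those 53 passed through a filter on level, so they are not all the genes of the interval. None of the 9 microRNA rows was tested, and 2 of them had any read. The genes spread unevenly: 39 of the 104 start below Rag1 and 64 above it, and the starts of Lrrc4c and B230118H07Rik lie 5.24 Mb apart with no other start between them. Lengthwise overlap with another row affected 27 genes, 10 of them tested, and the sources used here do not state whether strand was used in counting. Levels per kilobase of transcript, averaged over the 8 libraries, were highest for the tetraspanin gene Cd82 at 189 CPM per kb. Trp53i11 at 54.2, the stress granule gene Caprin1 at 50.9 and Cat at 48.4 CPM per kb followed. At the lower edge, Phf21a averaged 202 CPM just inside and Creb3l1 1.06 CPM just outside. At the upper edge, Ano3 and Muc15 had no read inside, and 4930430A15Rik had none outside.

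Promoters of genes that differed between the mice in both cell types are shown first, and no expression result below uses them. Each sequence is the 250 bases before the RefSeq start on GRCm38.p6 of the C57BL/6J strain, read along the gene, so it is the reference and not the sequence of these mice. RefSeq promoters matched 75 of the 104 genes and 46 of the 53 tested. Ehf and Lmo2 are named only. Capitals mark matches, on either strand, to 3 motifs chosen after the sequences were read. These are CAGGTG (an E-box bound by E proteins), ATTGG (an inverted CCAAT box) and the core of the ZNF143 site.
Rag1, chr2:101649533-101649782, minus strand: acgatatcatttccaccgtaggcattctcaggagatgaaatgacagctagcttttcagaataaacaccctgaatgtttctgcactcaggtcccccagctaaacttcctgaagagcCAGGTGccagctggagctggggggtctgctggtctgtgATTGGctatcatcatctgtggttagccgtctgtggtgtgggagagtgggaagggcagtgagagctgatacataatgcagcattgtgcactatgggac
B230118H07Rik (Iftap), chr2:101629032-101629281, minus strand: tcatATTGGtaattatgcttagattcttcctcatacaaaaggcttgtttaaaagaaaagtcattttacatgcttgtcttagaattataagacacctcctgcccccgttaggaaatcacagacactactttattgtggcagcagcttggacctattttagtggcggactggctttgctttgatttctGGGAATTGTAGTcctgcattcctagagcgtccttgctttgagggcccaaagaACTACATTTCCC
Abtb2, chr2:103566060-103566309, plus strand: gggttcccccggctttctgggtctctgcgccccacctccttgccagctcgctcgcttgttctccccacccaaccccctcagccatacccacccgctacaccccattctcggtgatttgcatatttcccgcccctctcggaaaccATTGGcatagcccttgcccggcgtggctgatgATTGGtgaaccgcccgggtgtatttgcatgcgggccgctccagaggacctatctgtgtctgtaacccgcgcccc
Nat10, chr2:103761271-103761520, minus strand: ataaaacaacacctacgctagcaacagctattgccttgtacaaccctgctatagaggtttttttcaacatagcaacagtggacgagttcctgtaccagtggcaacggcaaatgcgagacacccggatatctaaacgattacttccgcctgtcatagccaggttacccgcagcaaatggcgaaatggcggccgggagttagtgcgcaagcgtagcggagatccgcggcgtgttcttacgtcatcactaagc

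Rag1 held 1 E-box match at -135 from the start, and 17.2% of 32851 RefSeq promoter windows of the same length held one. An inverted CCAAT box, found in 33.8% of all windows, matched at -97 in Rag1. Abtb2 held 2, at -106 and -74, and B230118H07Rik 1, at -246. The window of B230118H07Rik held 2 matches to the ZNF143 core, at -64 and -12, where 0.871% of all windows held any. No motif of the 3 matched in the Nat10 window. CpG dinucleotides numbered 3 in the Rag1 and 3 in the B230118H07Rik window, against 16 in Abtb2, 18 in Nat10 and a median of 6 over all windows. B230118H07Rik has 2 RefSeq entries, of which 1 is shown. Its window lies away from the Rag1 start, from which its transcription in lymphocytes is known to begin. Which of its starts gave the reads counted here was not tested. The windows cover 2 of the 4 genes that were higher in monoclonal libraries. These are matches of letters in a reference, with no measurement of binding behind them.

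Depth ran from 14076330 to 19722321 reads assigned to genes per library. Treg markers followed the division by Foxp3. Summed CPM of Foxp3, Il2ra, Ctla4 and Ikzf2 was 4974 to 5601 in the 4 Treg libraries. In the 4 non-Treg libraries it was 453 to 782. Summed markers of T cells were 3251 to 3639 CPM in monoclonal and 3760 to 4880 CPM in polyclonal libraries. Of the 6 T cell markers, 2 were called lower in monoclonal Treg cells and 4 in monoclonal non-Treg cells, and 0 higher in either. Markers of antigen-presenting cells stood apart. The 8 dendritic cell markers summed to 355 to 412 CPM in monoclonal Treg and 1583 to 1831 CPM in monoclonal non-Treg libraries, against 15.9 to 43.0 CPM in polyclonal ones, and 6 of 8 were called higher in both cell types. The 4 class II genes summed to 4751 to 20398 CPM against 66.4 to 222 CPM, with 4 of 4 called higher in both, and the 7 macrophage and monocyte markers to 187 to 485 CPM against 26.7 to 38.3 CPM, with 5 of 7. Batf3, Xcr1, Clec9a, Cd14 and Fcgr1 were at 0 in at least 1 polyclonal library, and Xcr1 and Fcgr1 also in at least 1 monoclonal library. Neutrophil markers ranged from 40.3 to 777 CPM in monoclonal and 14.6 to 48.0 CPM in polyclonal libraries, with 3 of 4 called higher in Treg and 2 of 4 in non-Treg cells. B cell markers summed to 22.6 to 28.9 CPM in monoclonal and 4.002 to 4.99978 CPM in polyclonal non-Treg libraries. Of the 4 tested, 3 were called higher in monoclonal non-Treg cells and 0 lower. In Treg libraries the sums were 2.82 to 13.2 CPM in monoclonal and 10.2 to 19.9 CPM in polyclonal mice, with 0 called. The other lists were plasma cell markers (83.9 to 137 against 142 to 256 CPM), CD8 T cell markers (12.1 to 19.8 against 5.68 to 7.71 CPM), NK cell markers (15.1 to 25.2 against 13.3 to 26.1 CPM), erythroid and platelet markers (41.8 to 98.2 against 12.4 to 27.8 CPM) and stromal markers (232 to 352 against 219 to 292 CPM). The part of these transcripts in the results below was not tested. In bulk libraries, fewer cells of a type and less RNA per cell cannot be told apart.

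**Figure D1:**
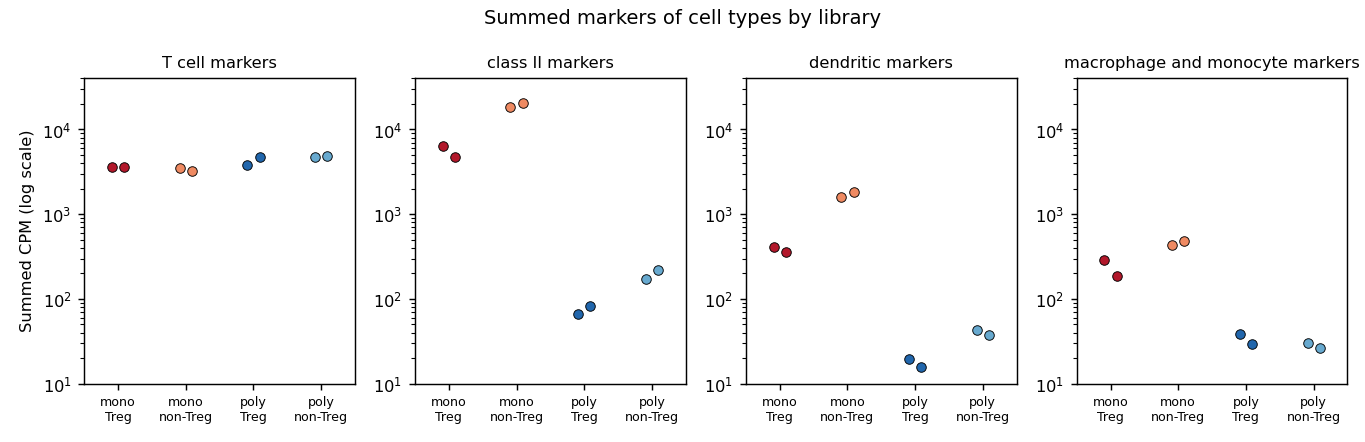
Summed CPM (log scale) of T cell, class II, dendritic cell, and macrophage and monocyte markers, 1 point per library in each of the 4 groups. T cell markers lie between 3251 and 4880 CPM everywhere, while dendritic markers reach 355 to 1831 CPM in monoclonal and stay at 15.9 to 43.0 CPM in polyclonal libraries.

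The first question was how the genes around Rag1 differ between monoclonal and polyclonal mice. In both cell types Rag1, B230118H07Rik, Ehf and Lmo2 were higher in monoclonal libraries, and Abtb2 and Nat10 were lower. A gene was called when its Benjamini-Hochberg adjusted p, from limma on log2(CPM + 1) over 12881 tested genes, was under 0.05, and a log2 fold change is on that scale and given with its standard error. Within Treg cells 17 of 53 genes were called (6 higher, 11 lower), 32.1% of them. Of all genes tested 24.2% were called (12.1% higher and 12.1% lower), as were 24.2% of the 959 tested genes elsewhere on chromosome 2. Within non-Treg cells 12 were called (9 higher, 3 lower), 22.6%, beside 19.4% of all genes tested (12.1% higher and 7.35% lower). Calls in both cell types in the same direction numbered 6, or 11.3% of the 53, beside 9.04% of all genes tested (6.11% higher and 2.93% lower), and opposite calls numbered 0, beside 0.66%. By direction, 11.3% of the 53 were called higher and 20.8% lower in Treg cells, where 13.8% of the tested genes elsewhere on chromosome 2 were lower, and 17% higher and 5.66% lower in non-Treg cells. No test of these shares was made. Median log2 fold changes of the tested genes were 0.07 in Treg and 0.07 in non-Treg cells, beside -0.03 and -0.07 over all genes. These comparisons share no library, though both take the spread from all 8.

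**Figure D2:**
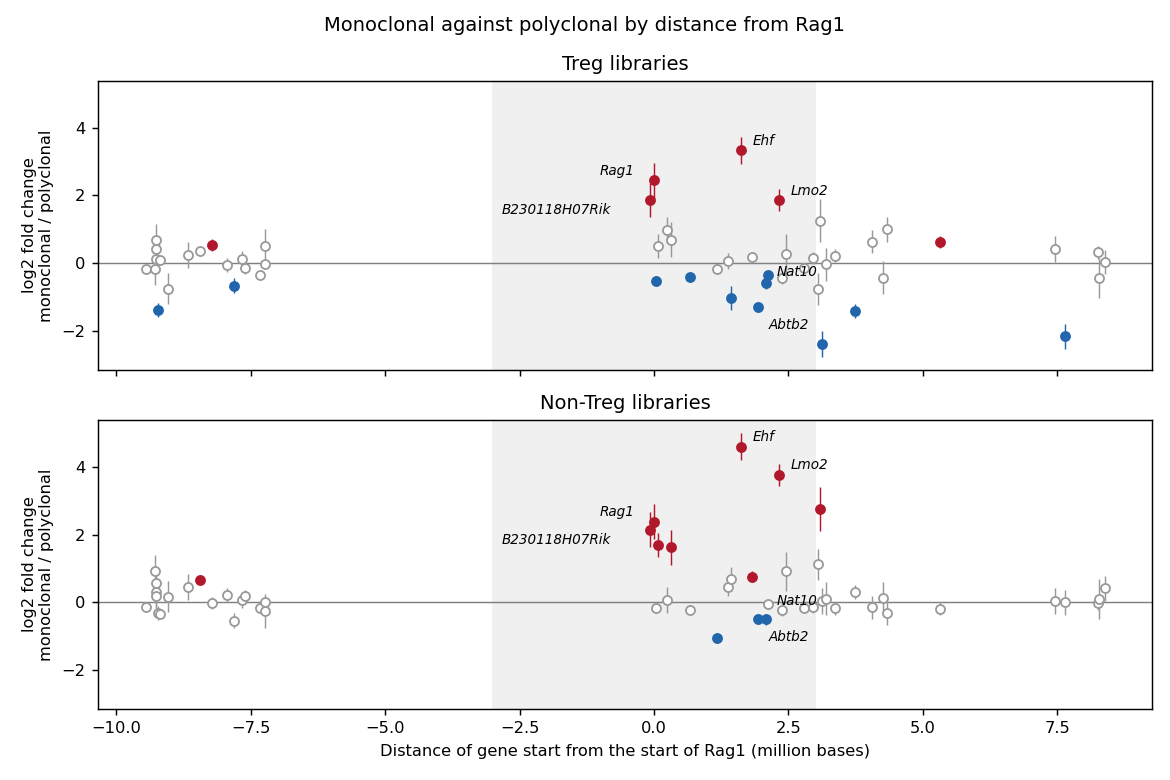
Log2 fold change of monoclonal over polyclonal libraries (points, with standard error bars) against the distance of each tested gene's start from that of Rag1, in Mb, for Treg (top) and non-Treg (bottom) libraries. Red points are called higher, blue points called lower and open points not called; the 6 labelled genes are called in both panels and lie in the shaded band within 3 Mb of Rag1.

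All 6 genes called in both cell types start within 3 Mb of Rag1, where 20 of the 53 tested genes lie. Rag1 itself and B230118H07Rik, whose reads are uncertain in assignment, are among the 6. Below Rag1, B230118H07Rik was the only tested gene in that band, and the next tested gene, Api5, starts at -7.23 Mb from Rag1. In that band 10 genes were called in Treg and 10 in non-Treg cells, while among the 33 tested genes farther away 7 and 2 were called, and 0 in both. Over all genes tested 24.2% were called in Treg and 19.4% in non-Treg cells, and 9.04% in both in the same direction. Within 1 Mb of Rag1, 4 of 7 tested genes were called higher and 0 lower in non-Treg cells (over all genes 12.1% and 7.35%), and 2 higher and 2 lower in Treg cells (12.1% and 12.1%). Median log2 fold changes in the bands under 1, from 1 to 3, from 3 to 6 and over 6 Mb were 1.62, -0.04, 0.08 and 0.06 in non-Treg cells. In Treg cells they were 0.69, -0.12, 0.10 and 0.04. Under the other settings tried, between 2 and 6 genes were called in both cell types inside the 3 Mb band. With DESeq2 on recovered reads, 2 genes beyond it were called in both as well, Trp53i11 and Depdc7, and 1 gene was without monoclonal Treg B or without polyclonal Treg B. No test of the position was made.

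Rag1 (NM_009019, chromosome 2, 101478411 to 101489689, minus strand) was low but present in every monoclonal library. In monoclonal mice it measured 7.10 and 7.002 CPM in Treg A and B and 3.27 and 8.96 CPM in non-Treg A and B. In polyclonal mice it measured 0 and 1.17 CPM in Treg and 0.570 and 0 CPM in non-Treg libraries. All 4 monoclonal libraries lay above all 4 polyclonal ones, on 59 to 139 reads against 0 to 23 reads. The log2 fold change was 2.45 ± 0.52 in Treg (adjusted p = 0.00334) and 2.38 ± 0.52 in non-Treg cells (adjusted p = 0.00405). edgeR on recovered reads gave 0.0796 and 0.0548 as adjusted p, and the non-Treg call was lost without monoclonal non-Treg B (adjusted p = 0.107) or polyclonal non-Treg B (adjusted p = 0.0661). Rag2, the partner subunit, had 1 read in all, in monoclonal non-Treg A. A count of 0 allows up to 3 reads, 0.152 to 0.213 CPM depending on the library, for counting error only. With the deleted gene and exons not named, neither level checks a label.

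B230118H07Rik (chromosome 2, 101400938 to 101469143, minus strand) followed Rag1. In monoclonal mice its Treg libraries had 7.16 and 5.25 CPM and its non-Treg libraries 6.16 and 10.7 CPM. In polyclonal mice these were 0.568 and 1.42 CPM and 2.405 and 0.258 CPM. Again no polyclonal library reached a monoclonal one. The log2 fold change was 1.87 ± 0.51 in Treg (adjusted p = 0.0151) and 2.14 ± 0.51 in non-Treg cells (adjusted p = 0.00713). The Treg call was lost without monoclonal Treg A (adjusted p = 0.0697) or polyclonal Treg A (0.0968), the non-Treg call without monoclonal non-Treg B (0.126) or polyclonal non-Treg B (0.157), and both with edgeR (0.0581 and 0.0612). In the deposited table this gene overlaps Rag2 on the opposite strand. In the GENCODE M21 annotation its gene spans Rag1 on the same strand, and 4 of its 12 transcripts start inside Rag2. Of the 12, 3 start within 100 bases of the Rag1 start and share exon bases with Rag1. Reads of the pair are therefore uncertain in their assignment.

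Over the 8 libraries, the Pearson correlation of log2(CPM + 1) with Rag1 was highest for Plekho2 (0.982), Tmem8 (0.980), Med31 (0.976), Cox6b2 (0.975) and Rab7 (0.973), all on other chromosomes. Within the interval it was 0.947 for B230118H07Rik, 0.867 for Ehf and 0.803 for Lmo2. These coefficients describe 8 points that share the 4 groups, and no test was made of them.

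Ehf, which encodes an ETS-family transcription factor known mainly from epithelia (chromosome 2, 103103590 to 103143353, minus strand), had the largest log2 fold change of the 53 tested genes in both comparisons. Monoclonal mice had 9.59 and 8.58 CPM in Treg and 30.3 and 41.5 CPM in non-Treg libraries. Polyclonal mice had 0 reads in either Treg library and 0.823 and 0.258 CPM in non-Treg libraries. Monoclonal non-Treg libraries were highest, and no monoclonal library overlapped the polyclonal range. Set against a floor of 3 reads per library, Ehf was at least 49.8-fold higher in monoclonal than in polyclonal Treg libraries. The fitted log2 fold changes were 3.33 ± 0.39 (adjusted p = 2.88e-05) in Treg and 4.59 ± 0.39 (adjusted p = 7.75e-07) in non-Treg cells. Both values depend on the pseudocount, which understates them at such low polyclonal levels, and the Treg value is no bound.

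Lmo2, a LIM-domain adaptor of the transcription complexes of blood stem and progenitor cells (chromosome 2, 103810444 to 103822035, plus strand), was also highest in monoclonal non-Treg libraries. Monoclonal Treg libraries had 31.3 and 33.3 CPM and their non-Treg counterparts 90.6 and 117 CPM. The polyclonal values were 12.3 and 5.32 CPM for Treg and 8.04 and 5.49 CPM for non-Treg. The polyclonal libraries, at 12.3 CPM or less, did not overlap the monoclonal ones. The log2 fold change was 1.86 ± 0.32 in Treg (adjusted p = 0.000791) and 3.76 ± 0.32 in non-Treg cells (adjusted p = 7.68e-07). Ehf and Lmo2 were called in both cell types in all 19 settings, Rag1 in 16 and B230118H07Rik in 14. Among monoclonal libraries, dendritic cell markers take the same order of groups as Ehf and Lmo2 (355 to 412 CPM in Treg, 1583 to 1831 CPM in non-Treg). Class II, macrophage and monocyte, B cell and stromal markers take it too. For B cell markers the sums were 2.82 to 13.2 CPM in Treg and 22.6 to 28.9 CPM in non-Treg libraries. The part of these transcripts in the differences was not tested.

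Abtb2, an ankyrin-repeat and BTB-domain protein gene, was lower in monoclonal mice. Its Treg libraries had 34.6 and 41.7 CPM in monoclonal against 87.9 and 100 CPM in polyclonal mice. Its non-Treg libraries had 88.8 and 88.1 CPM against 127 and 122 CPM. Within each cell type the groups did not overlap, though monoclonal non-Treg and polyclonal Treg libraries did. The log2 fold change was -1.28 ± 0.15 in Treg (adjusted p = 2.99e-05) and -0.49 ± 0.15 in non-Treg cells (adjusted p = 0.0343). Nat10, an acetyltransferase that modifies cytidines in RNA, measured 53.3 and 71.0 CPM in Treg libraries of monoclonal against 96.5 and 88.4 CPM of polyclonal mice. In non-Treg libraries it measured 74.9 and 85.1 CPM against 111.1 and 115 CPM. All its monoclonal values lay under all its polyclonal values, with log2 fold changes of -0.58 ± 0.16 (adjusted p = 0.0187) and -0.49 ± 0.16 (adjusted p = 0.0462). The non-Treg calls of both genes were lost with TMM scaling (adjusted p = 0.0749 for Abtb2 and 0.103 for Nat10). They were also lost when any of the 4 non-Treg libraries was left out (adjusted p from 0.149 to 0.240 for Abtb2 and from 0.117 to 0.276 for Nat10), and with scaling to the CD3 genes both values were close to 0. Without monoclonal Treg A or polyclonal Treg A, the Treg call of Nat10 was lost too (adjusted p = 0.130 and 0.0689).

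**Figure D3:**
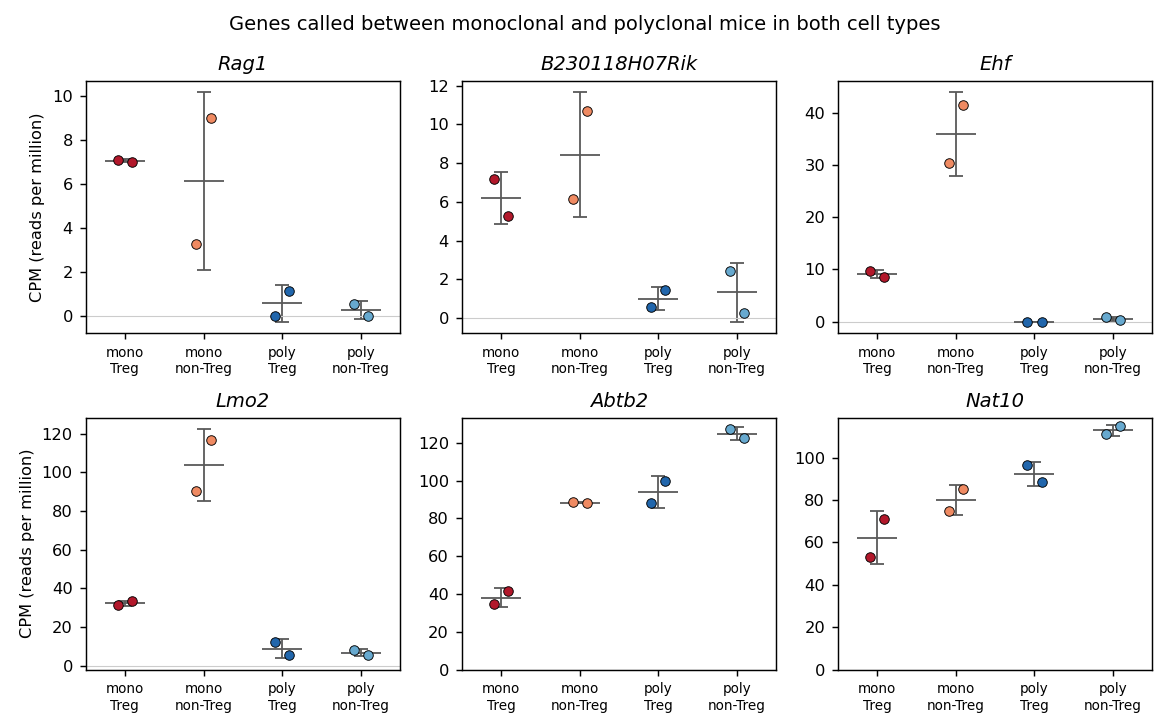
CPM of the 6 genes called between monoclonal and polyclonal mice in both cell types, 1 point per library, with the group mean and SD as bars. Rag1, B230118H07Rik, Ehf and Lmo2 are higher in the 4 monoclonal libraries than in any polyclonal one, and Nat10 is lower; Abtb2 ranges meet between monoclonal non-Treg (88.1 and 88.8) and polyclonal Treg (87.9 and 100).

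Counted over all 4 libraries of each kind of mouse, 9 of the 53 tested genes (4 higher, 5 lower) had ranges that did not overlap, or 17% beside 19.4% of all genes tested (9.33% higher and 10.1% lower). The lower ones were Nat10, Traf6, Ttc17, Cry2 and Accs. Traf6, the ubiquitin ligase that relays Toll-like receptor and CD40 signals and the nearest tested gene above Rag1, measured 99.01 and 84.5 CPM in Treg and 100 and 107 CPM in non-Treg libraries of monoclonal mice, and 116 to 140 CPM in the polyclonal libraries. Its log2 fold change was -0.52 ± 0.14 in Treg (adjusted p = 0.0153) and -0.17 ± 0.14 in non-Treg cells (adjusted p = 0.465). Without monoclonal Treg B or polyclonal Treg A, the Treg call was lost (adjusted p = 0.0904 and 0.0621). Next above it lie Prr5l, Commd9 and Ldlrad3. Prr5l, a partner of the kinase complex mTORC2, was higher in monoclonal non-Treg libraries, at 27.1 and 27.1 CPM against 6.27 and 9.29 CPM, with a log2 fold change of 1.70 ± 0.35 (adjusted p = 0.00295, and 0.0646 without polyclonal non-Treg A). Ldlrad3, an LDL-receptor class A domain gene, measured 5.21 and 5.16 against 0.633 and 1.48 CPM there, a log2 fold change of 1.62 ± 0.51 (adjusted p = 0.0382, and 0.0901 to 0.285 when any non-Treg library was left out). Commd9 was not called, at 12.0 to 14.8 CPM in the monoclonal and 4.12 to 14.7 CPM in the polyclonal libraries.

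Apart from the 6, 6 genes were called between non-Treg libraries and not between Treg libraries, which alone does not show that the cell types differ. Of all genes tested 19.4% were called in non-Treg cells and 9.04% in both in the same direction. The share called in non-Treg cells only was not counted. Besides Prr5l and Ldlrad3 the 6 genes called there only were Depdc7, Trp53i11, Cat and Cd44. Depdc7 measured 3.94 and 9.35 CPM in monoclonal against 0.127 and 0 CPM in polyclonal non-Treg libraries, with a log2 fold change of 2.75 ± 0.64 (adjusted p = 0.00658). In Treg libraries it was uneven, at 4.66 and 0.113 against 0 and 0.101 CPM. The non-Treg call of Depdc7 was lost without monoclonal non-Treg B (adjusted p = 0.131) or polyclonal non-Treg B (0.0556). Cat, which encodes the hydrogen peroxide-degrading enzyme catalase, measured 150 and 179 against 91.3 and 102 CPM, a log2 fold change of 0.75 ± 0.16 (adjusted p = 0.00295). Without monoclonal non-Treg B or polyclonal non-Treg A it was not called (adjusted p = 0.0763 and 0.0572). Trp53i11 measured 95.5 and 93.7 against 62.9 and 55.7 CPM, a log2 fold change of 0.67 ± 0.13 (adjusted p = 0.00225, and 0.0573 without polyclonal non-Treg B).

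Cd44, the hyaluronan receptor used as a marker of activated and memory T cells, was lower in monoclonal non-Treg libraries. It measured 100 and 101 CPM there against 211 and 210 CPM in polyclonal non-Treg libraries. Treg libraries had 193 and 220 CPM in monoclonal and 204 and 263 CPM in polyclonal mice. Only the monoclonal non-Treg pair stood apart, with a log2 fold change of -1.06 ± 0.14 against polyclonal non-Treg cells (adjusted p = 6.21e-05). The mouse difference itself differed between the cell types by 0.89 ± 0.20 (adjusted p = 0.0125). Scaling to the CD3 genes removed these calls and that between Treg and non-Treg libraries of monoclonal mice, and the summed T cell markers of the same libraries were 3251 and 3489 CPM, the lowest of the 8. The part of that in the Cd44 values was not tested.

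In Treg cells 11 genes were called between the mice without a call in non-Treg cells, 9 lower and 2 higher. Of all genes tested 24.2% were called in Treg cells and 9.04% in both in the same direction. The share called in Treg cells only was not counted. Qser1, which protects DNA from methylation, was lower in monoclonal Treg libraries, at 1.77 and 6.04 CPM against 24.1 and 19.8 CPM, and measured 17.7 to 24.1 CPM in the 4 non-Treg libraries. The log2 fold change was -2.37 ± 0.38 (adjusted p = 0.0004). Kif18a, a kinesin of chromosome alignment in mitosis, measured 1.84 and 1.07 against 10.2 and 9.43 CPM, a log2 fold change of -2.15 ± 0.37 (adjusted p = 0.000764). Rcn1, a calcium-binding protein of the endoplasmic reticulum, measured 41.9 and 34.2 against 106 and 97.6 CPM, with a log2 fold change of -1.40 ± 0.19 (adjusted p = 0.00012). Cry2, a repressor of the circadian clock, measured 14.9 and 18.7 against 42.6 and 48.3 CPM, a log2 fold change of -1.39 ± 0.21 (adjusted p = 0.000214). These 4 genes kept their call in every alternative run, and their groups did not overlap.

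The other 7 were closer to the threshold. Apip, an enzyme of methionine salvage, measured 6.90 and 3.84 against 11.4 and 11.7 CPM in Treg libraries, with a log2 fold change of -1.02 ± 0.35 (adjusted p = 0.0478). Accs had -0.66 ± 0.22 (adjusted p = 0.0434), Trim44 -0.41 ± 0.14 (adjusted p = 0.0464) and Caprin1 -0.33 ± 0.11 (adjusted p = 0.0468). Cd82, a tetraspanin of the T cell surface, had 0.54 ± 0.18 (adjusted p = 0.0417), with 405 and 471 against 235 and 384 CPM. Each of these 5 calls was lost when any library but 1 was left out (adjusted p from 0.0672 to 0.206 for Apip, 0.0597 to 0.273 for Accs, 0.0807 to 0.252 for Trim44, 0.0757 to 0.143 for Caprin1 and 0.0657 to 0.312 for Cd82). The exception was monoclonal Treg A for Apip and polyclonal Treg B for the other 4. Arl14ep, which links class II vesicles to the cytoskeleton, measured 55.3 and 65.6 against 41.3 and 36.2 CPM, a log2 fold change of 0.63 ± 0.18 (adjusted p = 0.0203). It was not called without monoclonal Treg B (adjusted p = 0.101) or polyclonal Treg B (0.0614). Class II genes summed to 4751 to 6395 CPM in monoclonal and 66.4 to 82.9 CPM in polyclonal Treg libraries. In non-Treg libraries they summed to 18273 to 20398 against 172 to 222 CPM. Arl14ep measured 39.3 and 43.7 against 47.6 and 46.6 CPM there and was not called. Between Treg and non-Treg libraries of monoclonal mice, class II genes were lower and Arl14ep higher. The part of class II transcripts in the Arl14ep values was not tested.

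**Figure D4:**
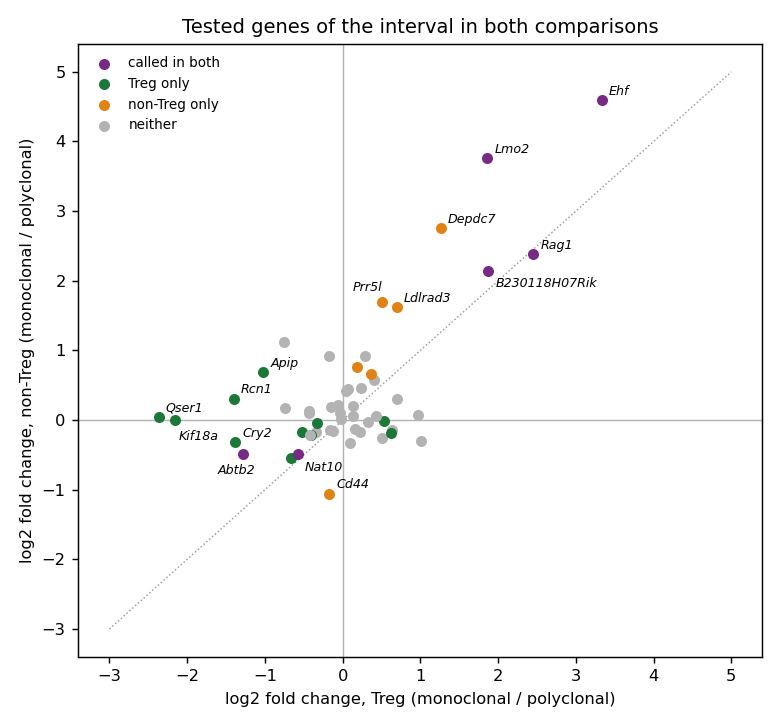
Log2 fold change of monoclonal over polyclonal libraries in Treg (x axis) and non-Treg cells (y axis) for the 53 tested genes, coloured by the comparisons in which they were called, with a dotted line of equal change. Ehf and Lmo2 lie above the line, Rag1 and B230118H07Rik near it, and Qser1 and Kif18a at about -2.37 and -2.15 in Treg cells and near 0 in non-Treg cells.

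Of the 2 libraries left out one at a time that moved these counts most, monoclonal non-Treg B and polyclonal non-Treg B each lowered the genes called in both cell types from 6 to 2 and those called in non-Treg cells from 12 to 5. Without polyclonal non-Treg A, 7 were called in non-Treg cells, and without polyclonal Treg A, 9 in Treg cells. Scaling to the CD3 genes gave 4 higher and 5 lower in Treg cells and 16 higher and 0 lower in non-Treg cells, where it raised the median of all genes by 0.47. TMM scaling gave 9 higher and 1 lower in non-Treg cells and 4 higher and 0 lower in both.

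Treg and non-Treg libraries of the same mice were compared next. These comparisons share libraries with those between the mice, so values are given side by side only. In monoclonal mice 14 of 53 genes were called (4 higher in Treg, 10 lower), 26.4% beside 24.4% of all genes tested (10.8% higher and 13.6% lower). In polyclonal mice 2 of 53 were called, both higher, 3.77% beside 7.9% of all genes (4.63% higher and 3.28% lower). In polyclonal mice 7 of the 53 genes had an unadjusted limma p under 0.05, beside 2408 of all 12881 tested. There edgeR and DESeq2 each called 3 of the 53, and edgeR called 916 of the 12881. Trp53i11, a target of p53, was the gene called in both. It measured 236 and 238 CPM in Treg against 95.5 and 93.7 CPM in non-Treg libraries of monoclonal mice, and 171 and 197 against 62.9 and 55.7 CPM in polyclonal mice. All 4 Treg libraries lay above all 4 non-Treg libraries, with log2 fold changes of 1.31 ± 0.13 (adjusted p = 1.01e-05) and 1.62 ± 0.13 (adjusted p = 3.15e-06), kept in every alternative run.

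Rcn1 was the other gene called in polyclonal mice, at 106 and 97.6 CPM in Treg and 31.6 and 29.8 CPM in non-Treg libraries. Its log2 fold change there was 1.70 ± 0.19 (adjusted p = 5.72e-05), beside -0.01 ± 0.19 (adjusted p = 0.979) in monoclonal mice, where Treg libraries had 41.9 and 34.2 and non-Treg libraries 44.4 and 32.7 CPM. Polyclonal Treg libraries alone were high. The difference of the 2 Treg effects was -1.71 ± 0.28 (adjusted p = 0.00174), and every alternative kept that call.

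In monoclonal mice Cd44 (log2 fold change 1.03 ± 0.14, adjusted p = 0.000129), Cd82 (0.70 ± 0.18, adjusted p = 0.0105) and Arl14ep (0.53 ± 0.18, adjusted p = 0.0445) were also higher in Treg libraries. Cd82 measured 405 and 471 against 258 and 279 CPM, and its call was lost without monoclonal Treg B (adjusted p = 0.0968), monoclonal non-Treg A (0.0982) or monoclonal non-Treg B (0.0737). That of Arl14ep, at 55.3 and 65.6 against 39.3 and 43.7 CPM, was lost without any of 5 libraries, monoclonal Treg B, monoclonal non-Treg A and B and polyclonal non-Treg A and B (adjusted p from 0.0873 to 0.221). Lowest in monoclonal Treg against non-Treg libraries was Qser1, with a log2 fold change of -2.34 ± 0.38 (adjusted p = 0.000472). Prr5l followed at 5.45 and 5.93 against 27.1 and 27.1 CPM (-2.07 ± 0.35, adjusted p = 0.000751). Tcp11l1 measured 0.526 and 0.734 against 4.44 and 5.93 CPM (-1.92 ± 0.46, adjusted p = 0.00772, and 0.0988 without monoclonal non-Treg B). Ehf (-1.86 ± 0.39, adjusted p = 0.0035) and Lmo2 (-1.64 ± 0.32, adjusted p = 0.00204) were lower in Treg libraries too, and each lost the call without monoclonal non-Treg B (adjusted p = 0.0737 and 0.0619).

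The remaining 5 genes lower in monoclonal Treg than non-Treg libraries were Kif18a, Apip, Abtb2, Cry2 and Hsd17b12. Abtb2 had a log2 fold change of -1.20 ± 0.15 (adjusted p = 6.96e-05) and Cry2 -0.99 ± 0.21 (adjusted p = 0.00301), both kept in every alternative. Kif18a (-1.31 ± 0.37, adjusted p = 0.0193) and Apip (-1.28 ± 0.35, adjusted p = 0.0155) each lost it without monoclonal Treg B (0.0649 and 0.0883), monoclonal non-Treg A (0.113 and 0.0967) or monoclonal non-Treg B (0.0987 and 0.106). Hsd17b12, an enzyme of fatty acid elongation, measured 31.7 and 34.5 against 52.6 and 50.1 CPM (-0.62 ± 0.18, adjusted p = 0.0218). It was not called without monoclonal Treg A (0.0665), either monoclonal non-Treg library (0.126 and 0.111) or polyclonal non-Treg B (0.0502). The count of 14 fell to 9 without monoclonal non-Treg A and to 6 without monoclonal non-Treg B. Scaling to the CD3 genes, which lowered the median of all genes in this comparison (shift of -0.53), gave 1 higher and 22 lower.

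**Figure D5:**
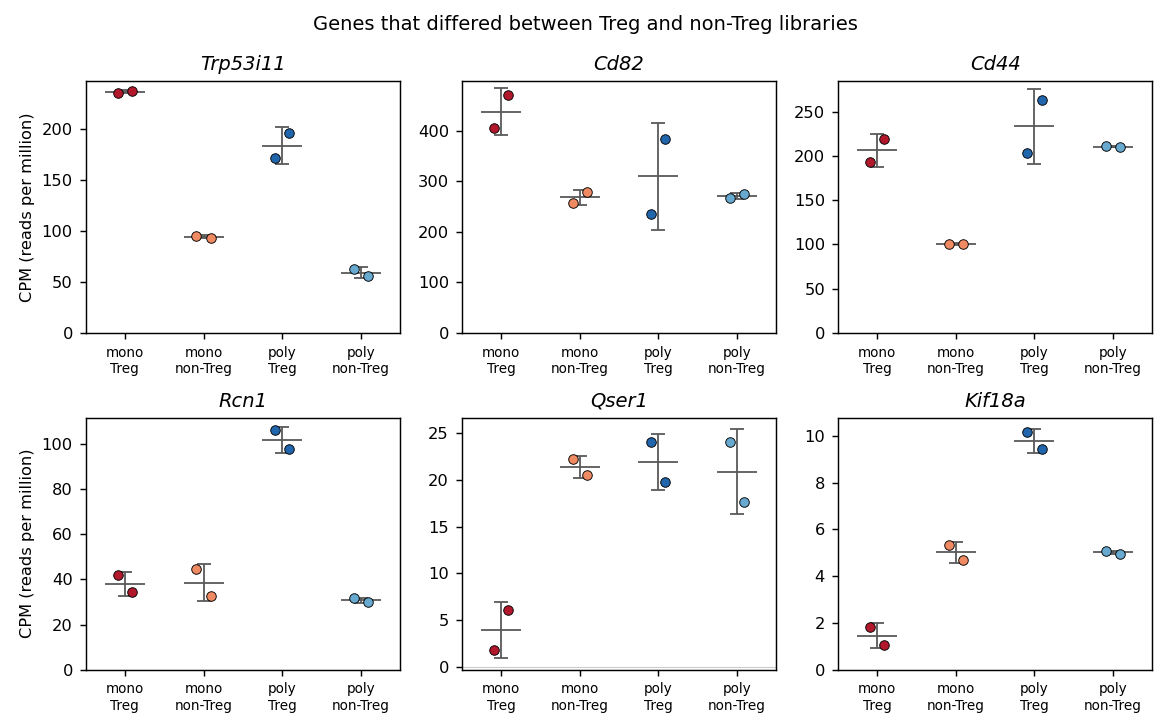
CPM of Trp53i11, Cd82, Cd44, Rcn1, Qser1 and Kif18a in the 4 groups, 1 point per library, with the group mean and SD as bars. Trp53i11 is higher in Treg libraries of both kinds of mouse, Rcn1 in polyclonal Treg libraries (106 and 97.6 CPM), Cd44 is low in monoclonal non-Treg (100 and 101 CPM), and Qser1 and Kif18a are low in monoclonal Treg libraries.

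The test of the difference between the Treg effects, which is also that of the mouse difference between the cell types, called 8 of 53 genes (1 higher, 7 lower), 15.1% beside 9.2% of all genes tested (3.64% higher and 5.56% lower). Cd44 was the one with a more positive Treg effect in monoclonal mice. The 7 with a more negative one were Qser1, Kif18a, Lmo2, Rcn1, Apip, Cry2 and Abtb2. Ehf (-1.26 ± 0.56, adjusted p = 0.188), Prr5l (-1.19 ± 0.50, adjusted p = 0.162) and Tcp11l1 (-1.88 ± 0.65, adjusted p = 0.0928) did not pass. The count was 1 without monoclonal non-Treg A, without monoclonal non-Treg B or without polyclonal non-Treg B, 3 without polyclonal non-Treg A, and 3 with no filter on low values. Scaling to the CD3 genes gave 0 higher and 10 lower.

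Over all genes tested, 12.1% were called higher and 12.1% lower in Treg cells between the mice, and 12.1% and 7.35% in non-Treg cells. By role, 10 genes listed as immune receptors and signalling were tested, a list that also holds the transcription genes Ehf and Lmo2. In monoclonal Treg cells 3 were higher (Ehf, Lmo2, Cd82) and 1 lower (Traf6), with a median log2 fold change of 0.39. In non-Treg cells 3 were higher (Ehf, Lmo2, Prr5l) and 1 lower (Cd44), with a median of 0.14. In that list Hipk3, a stress-activated kinase, was not called, at 98.2 to 135 CPM over the 8 libraries, nor was the complement inhibitor Cd59a, at 0 to 2.17 CPM. Of 7 RNA and translation genes, 2 were lower in Treg (Nat10, Caprin1) and 1 in non-Treg cells (Nat10), and Api5, an inhibitor of apoptosis, held 111.1 to 130 CPM in every library without a call. Of 8 metabolic genes 2 were lower in Treg cells (Apip, Accs) and 1 higher in non-Treg cells (Cat). The 6 chromatin, DNA repair, mitosis and clock genes found had 3 lower in Treg (Kif18a, Qser1, Cry2; median -0.77) and a median of 0.02 in non-Treg cells. This list of 7 symbols gave Trp53i11 as Tp53i11, which matched no row, so these counts and medians leave it out. Its log2 fold changes were 0.36 (limma adjusted p = 0.063) in Treg and 0.67 (limma adjusted p = 0.00225) in non-Treg cells. Among 7 protein turnover and trafficking genes 3 were lower in Treg (Trim44, Rcn1, Abtb2), and in non-Treg cells 1 was higher (Ldlrad3) and 1 lower (Abtb2). The 4 glycan and matrix genes had medians of -0.12 in Treg and 0.19 in non-Treg cells, and the 2 neural and developmental genes -0.23 and 0.10, without a call. Ttc17 (76.4 to 106 CPM) and 2810002D19Rik (0.852 to 5.06 CPM) were not called either. Over the 5 comparisons together 25 of the 53 genes were called at least once and 28 were not. The same count was not made over all genes tested, of which 7.9% to 24.4% were called in each single comparison.

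The partners of Rag1 in V(D)J recombination and end joining lie mostly elsewhere in the genome. Of 14 such genes 13 were tested, and 4 were called in Treg cells, Rag1 and Hmgb1 higher, Prkdc and Xrcc5 lower, beside 24.2% of all genes tested. In non-Treg cells Rag1 and Dclre1c, the Artemis nuclease, were higher and Xrcc5 lower, beside 19.4% of all genes tested. Xrcc5, the Ku80 subunit that binds broken DNA ends, was lower in monoclonal libraries of both cell types, at 25.2 to 30.4 CPM against 41.9 to 50.8 CPM. Its log2 fold changes were -0.80 ± 0.19 in Treg (adjusted p = 0.00819) and -0.65 ± 0.19 in non-Treg cells (adjusted p = 0.0287). Calls for genes of this list that lie outside the interval, Xrcc5 among them, were not put through the alternative runs. Dntt, the terminal transferase of developing lymphocytes, was not called, at 0 to 9.32 CPM in monoclonal and 1.12 to 3.16 CPM in polyclonal libraries. Within monoclonal mice Lig4 and Polm were higher and Dclre1c and Prkdc lower in Treg than in non-Treg libraries, and in polyclonal mice the median of the 13 was 0.11.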

How the data were processed

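Poly-dT-selected, strand-preserving RNA libraries were read as single 50-base reads, per the labels' protocols. Tools listed in the submitters' processing notes, with no role given, are STAR 2.4.1a, HOMER 4.7, edgeR, Trimmomatic 0.33, FastQC 0.10.1 and CASAVA 1.8.2, and the build is mm9. The authors deposited 1 table of CPM values for 24016 genes, each library summing to 1000000. Within 0.01 read, 100% of values were whole multiples of 1 read, so counts were recovered from the deposited values.

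The 12881 genes that reached 1 CPM in 2 or more libraries were tested with limma 3.58.1 (trend, robust; R 4.3.3) on log2(CPM + 1), with 1 mean per group over the 8 libraries and 4 residual degrees of freedom. The 2-sided p-values were adjusted over all genes tested (Benjamini-Hochberg) and called under 0.05. The pseudocount of 1 CPM understates changes of low genes. The script was tested on simulated data. On recovered reads, edgeR 4.0.16 called 2639 and 1975 genes between the mice in Treg and non-Treg cells, 2602 and 916 between Treg and non-Treg cells of monoclonal and polyclonal mice, and 947 for the difference. Alternatives were 2 other pseudocounts, other filters, TMM and CD3 scaling (Cd3d, Cd3e, Cd3g and Cd247), edgeR, DESeq2 1.42.0, a fit of only the 4 libraries compared, a replicate block, and each library left out.

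The genes of the interval, the role and marker lists and the tests were chosen with earlier results of these data known. Named genes were Rag1 and Rag2, genes called in both mouse comparisons, the 5 tested genes nearest Rag1 on each side, the 4 largest called Treg effects each way, the 3 largest calls in 1 mouse comparison only, and Cd44, Traf6, Cd82, Lmo2, Cat, Hipk3, Cd59a, Prr5l and Commd9. Accs, Apip, Caprin1 and Cry2, and genes named from the V(D)J list or at the edges of the interval, were chosen after their values were seen. Jchain, Adgre1 and Ly6g of the marker lists had no row under those symbols, nor had Dcdc1, Dcdc5 and Tp53i11 of the role lists. mm9 sequence was not used here.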

Additional observations from a re-analysis of the deposited data

Results flagged for a closer look

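For 8 genes the Treg effect differed between monoclonal and polyclonal mice by the limma interaction test, given here as the log2 effect in monoclonal minus that in polyclonal mice. In Qser1 the difference was -2.42 ± 0.53 (adjusted p = 0.0117), with an effect of -2.34 in monoclonal and 0.08 in polyclonal mice. Kif18a differed by -2.15 ± 0.53 (adjusted p = 0.0203; effects -1.31 and 0.84). Lmo2 differed by -1.90 ± 0.46 (adjusted p = 0.0182; -1.64 and 0.26). In Rcn1 it was -1.71 ± 0.28 (adjusted p = 0.00174; -0.01 and 1.70), the one of the 8 that kept its call in all alternatives. Apip had -1.71 ± 0.50 (adjusted p = 0.0452; -1.28 and 0.43), Cry2 -1.07 ± 0.29 (adjusted p = 0.0343; -0.99 and 0.08) and Abtb2 -0.79 ± 0.22 (adjusted p = 0.035; -1.20 and -0.41). Cd44 had 0.89 ± 0.20 (adjusted p = 0.0125; 1.03 and 0.14). Leaving out 1 library ended the call for the other 7. It was lost without monoclonal non-Treg B in each of them (adjusted p = 0.0751 for Qser1, 0.0875 for Kif18a, 0.158 for Lmo2, 0.177 for Apip, 0.109 for Cry2, 0.152 for Abtb2 and 0.0771 for Cd44). Without polyclonal non-Treg B it was lost in the same 7 (0.0762, 0.105, 0.0962, 0.0805, 0.176, 0.175 and 0.0707), and without monoclonal non-Treg A too (0.0706, 0.0885, 0.0651, 0.149, 0.141, 0.121 and 0.0658).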

How the results depend on the processing

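Of 53 called log2 fold changes over the 5 comparisons, 17 kept their call in every alternative run and 36 lost it in at least 1, 33 of them when 1 library was left out. With edgeR on recovered reads the genes called between the mice were 10 in Treg and 7 in non-Treg cells, with 2 in both. A fit of only the 4 libraries compared called 9 in Treg cells. Scaling to the CD3 genes called 9 there and 23 between Treg and non-Treg libraries of monoclonal mice, and with no filter on low values 3 differed between the Treg effects; the causes were not tested. That scaling also turned 3 signs, giving 0.0059 for Abtb2 and 0.0045 for Nat10 between the mice in non-Treg cells and -0.033 for the Treg effect of Arl14ep in monoclonal mice. Leaving out 1 library at a time gave 9 to 20 genes called between the mice in Treg cells, 5 to 12 in non-Treg cells, 2 to 7 in both, 6 to 17 for the Treg effect in monoclonal mice, 2 to 3 in polyclonal mice and 1 to 9 for the difference. Where a group kept 1 library, that library was assumed to vary like the others. The A minus B difference across genes correlated at -0.093 to 0.097 between groups. Between Treg and non-Treg libraries it was 0.097 in monoclonal and 0.075 in polyclonal mice. Whether the replicate letters pair the libraries is not stated, and these values cannot decide it. With the replicate block 14 genes were called in Treg and 11 in non-Treg cells, 5 in both, 13 and 2 for the Treg effects and 7 for the difference. Depth limits the genes under a few CPM, Rag1, B230118H07Rik, Depdc7 and Ldlrad3 among them, and Rag2 could not be compared.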
